A study of Mus musculus with 30 samples.

Results

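The RNA of 10 genes that mark cytotoxic lymphocytes and natural killer (NK) cells was followed in blood platelets and in peripheral blood mononuclear cells (PBMCs) of mice injected with B16F10 melanoma cells. The 10 genes are Prf1, Gzma, Gzmb and Ctsw of the cytotoxic granule, the granule membrane gene Nkg7, the receptor genes Klrg1, Klrd1 and Ncr1, the transcription factor gene Eomes and the cytokine gene Ifng. They were taken by symbol from the 54532 Ensembl genes of the count tables, and all 10 were found in the tables of both tissues.

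Cytotoxic T cells and NK cells kill a target cell by releasing granules in which perforin opens the membrane and granzymes enter to cut proteins that start cell death. Activating and inhibitory receptors on the cell surface set whether this release takes place, and the T-box transcription factors Eomes and T-bet drive the genes of the program, Ifng among them. Platelets have no nucleus and carry RNA from the megakaryocytes that shed them, while PBMCs hold the blood T cells and NK cells themselves.

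All mice were female C57BL/6 of 6 to 8 weeks, injected under the skin of the right flank, and their blood was collected on day 14. Mice of C group received 100 µl of Hank's Balanced Salt Solution without cells, mice of S group 2000 B16F10 cells (early tumor in the labels) and mice of O group 100000 B16F10 cells (large tumor). B16F10 is a melanoma line of C57BL/6 origin, so the tumors grew in hosts with intact lymphocytes. On day 14 the S group mice had no tumor visible at autopsy, and some of them may never have formed one, so an S group library can mix mice with and without a growing tumor. Each library was made from RNA pooled over several mice, 5 to 10 for platelets of C group, 10 for platelets of S group by the labels (the methods differ slightly for some of these pools) and 3 to 5 for platelets of O group, and 5, 4 to 5 and 3 to 5 mice for PBMCs of C, S and O group. There were 5 libraries per group and tissue and 30 in all. Platelets and PBMCs were separated from the same tubes of blood, so libraries of the 2 tissues may share mice.

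The total count on genes was 12259036 to 25360080 per platelet library (median 17140564) and 13390983 to 15973449 per PBMC library (median 14684708). The labelled tissues were checked by marker genes. The summed level of 9 platelet and megakaryocyte genes was 13195 to 75524 CPM (counts scaled to library size with the trimmed mean of M values, TMM) in platelet libraries and 451 to 5938 CPM in PBMC libraries. That of 7 erythroid markers was 74275 to 1067300 CPM in platelet libraries and 19100 to 292480 CPM in PBMC libraries. It was above the platelet marker sum in every platelet library except replicate 4 of O group. The leukocyte gene Ptprc (CD45) was at 61.7 to 670 CPM in platelet libraries and 1006 to 1129 CPM in PBMC libraries. RNA of this leukocyte gene was thus present in every platelet library, and its source was not tested. Of 5 genes listed as NK markers, Itga2 was at 87.1 to 327 CPM in platelets and 17.9 to 32.6 CPM in PBMCs, and since platelets carry this collagen receptor it does not mark NK cells there. Replicate 1 of O group platelets stood apart, with a TMM factor of 0.386, the highest erythroid marker sum (1067300 CPM) and the highest neutrophil marker sum (5291 CPM) of the platelet libraries. Replicate 5 of S group platelets had the highest Ptprc level (670 CPM), and replicate 3 of S group PBMCs had counts on 32900 genes. Replicate 1 of O group PBMCs had the lowest TMM factor (0.932) and the highest erythroid marker sum (292480 CPM) of its tissue. It also had the highest neutrophil marker sum of its tissue (3988 CPM). Comparisons of the members between groups of 1 tissue were also made without these 4 libraries.

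In GRCm38, Prf1 (ENSMUSG00000037202) lies at chr10:61297833-61304680 on the plus strand, Gzma (ENSMUSG00000023132) at chr13:113093825-113100981 and Gzmb (ENSMUSG00000015437) at chr14:56258838-56262260, both on the minus strand. Ctsw (ENSMUSG00000024910, chr19:5465043-5468507, minus strand) overlaps the gene Fibp of the opposite strand by 9 bases. Nkg7 (ENSMUSG00000004612) lies at chr7:43437073-43438249 and Ncr1 (ENSMUSG00000062524) at chr7:4337724-4345164, both on the plus strand. Klrg1 (ENSMUSG00000030114, chr6:122270596-122282882, minus strand) and Klrd1 (ENSMUSG00000030165, chr6:129591782-129598775, plus strand) share chromosome 6. Eomes (ENSMUSG00000032446, chr9:118478212-118486132, plus strand) overlaps the antisense gene Gm33460 by 574 bases, which had 0 to 9 counts in platelet and 2 to 18 counts in PBMC libraries. Ifng (ENSMUSG00000055170, chr10:118441046-118445892, plus strand) shares 2722 bases with the unclassified gene Gm49751 of the same strand, which had at most 9 counts in a platelet library and 5 to 55 in a PBMC library. Whether the counting used strand is not stated, so reads in these overlaps could have been assigned to either gene.

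The RefSeq promoter table held 7 of the 10 genes. The 250 bases before the RefSeq start are shown for Prf1 and Gzmb, whose RNA was higher in platelets of S group than in the other groups, and for Ncr1 and Eomes, whose RNA edgeR did not call there (limma voom did against C group). Sequences are on the strand of the gene in GRCm38.p6, 5′ to 3′. Capitals mark each match on either strand to TGTGGT (Runx) or AGGAAG (Ets), and GGTGTG (T-box) and TTCNNNGAA (STAT), which were searched as well, had no match in these 4 windows. No matches overlapped.
Prf1, chr10:61297586-61297835, plus strand: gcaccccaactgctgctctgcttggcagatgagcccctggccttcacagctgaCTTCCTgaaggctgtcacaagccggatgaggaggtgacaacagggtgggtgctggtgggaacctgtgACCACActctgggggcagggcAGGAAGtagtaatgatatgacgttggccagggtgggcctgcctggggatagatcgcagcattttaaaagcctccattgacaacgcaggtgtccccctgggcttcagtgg
Gzmb, chr14:56262335-56262584, minus strand: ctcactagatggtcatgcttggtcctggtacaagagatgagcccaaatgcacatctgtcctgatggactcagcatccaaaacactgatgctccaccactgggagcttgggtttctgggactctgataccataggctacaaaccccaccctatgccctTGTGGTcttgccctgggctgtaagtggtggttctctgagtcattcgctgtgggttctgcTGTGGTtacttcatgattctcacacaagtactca
Ncr1, chr7:4337474-4337723, plus strand: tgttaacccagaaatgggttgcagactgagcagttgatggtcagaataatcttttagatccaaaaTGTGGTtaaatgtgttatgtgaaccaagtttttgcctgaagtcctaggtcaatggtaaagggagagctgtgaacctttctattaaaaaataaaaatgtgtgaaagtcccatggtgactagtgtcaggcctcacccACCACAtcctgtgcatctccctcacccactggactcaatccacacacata
Eomes, chr9:118477939-118478188, plus strand: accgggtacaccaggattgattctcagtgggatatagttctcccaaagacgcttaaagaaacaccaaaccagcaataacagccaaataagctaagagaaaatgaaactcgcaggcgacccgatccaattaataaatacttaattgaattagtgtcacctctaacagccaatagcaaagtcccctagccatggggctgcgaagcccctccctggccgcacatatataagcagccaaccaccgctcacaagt

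Runx letters were found in the windows of Prf1 (1 match), Gzmb (2), Ncr1 (2), Gzma and Nkg7, 5 of 7 members, and in 14.0% of all 32851 promoter windows of this length. Ets letters were found for Prf1 (2 matches) and Nkg7, 2 of 7 members against 29.5% of all windows. T-box letters were found for Nkg7 alone (1 of 7, against 16.3%) and STAT letters for Ifng and Nkg7 (2 of 7, against 7.02%). Gzmb, higher in S group platelets, and Ncr1, not called by edgeR, thus both had 2 Runx matches, and the window of Eomes had none of the 4 motifs. The GENCODE start of Gzmb lies 74 bases downstream of the RefSeq start, that of Eomes 23 bases downstream and that of Prf1 3 bases upstream.

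In platelets, Prf1, Ctsw, Gzmb, Nkg7 and Klrg1 were higher in S group than in either other group. Of the 9 members with enough counts for the fit, 5 were higher in S group than in C group at an unadjusted P under 0.05 (the threshold of the study, read as unadjusted), where 4.29% of the 13268 genes tested were called higher. Against O group 7 of 9 were higher, these 5 with Gzma and Klrd1, where 7.23% of 13306 genes were. Ncr1 and Eomes passed in neither comparison in edgeR. With limma voom and sample quality weights 8 of 9 passed against C group, these 5 with Gzma, Ncr1 (0.35) and Eomes (0.48), and against O group neither Ncr1 nor Eomes did. The share of all genes that voom called is not given here, so its count of members cannot be set against that share. The comparisons use the same 5 S group libraries and are not independent of each other. No member had an adjusted P under 0.05, as was so for all genes but 1 against C group (0.00754%) and for all genes against O group. In edgeR the adjusted P was 0.746 for each of the 5 members called against C group, and against O group it was 0.225 for Prf1, Ctsw, Gzmb and Nkg7. The study had listed Ifng, Prf1, Ctsw, Gzmb, Klrg1 and Nkg7 among its markers of the early tumor from these same libraries, so their direction is not independent evidence. By qPCR of platelet RNA in its validation cohort of mice, the study found Ctsw, Gzmb and Klrg1 to differ between groups. Ifng and Prf1 gave non-significant results there, with invalid values in many samples, and Nkg7 was not in the panel of genes tested. In bulk RNA, fewer cytotoxic cells in a preparation and less RNA per cell cannot be told apart.

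Prf1, the pore-forming protein of the granule, had 11.8, 3.09, 6.95, 8.55 and 7.75 CPM in platelet replicates 1 to 5 of C group, 23.2, 13.4, 31.3, 7.36 and 17.5 CPM in S group and 3.66, 2.61, 9.77, 2.40 and 4.16 CPM in O group. All S group libraries except replicate 4 lay above every C group and O group library, and replicate 4 lay among them. The means were 7.62 ± 3.12, 18.6 ± 9.17 and 4.52 ± 3.02 CPM for C, S and O group (SD, n = 5 each). The log2 fold change of S group was 1.31 ± 0.38 (SE, 95% interval 0.50 to 2.12) against C group and 2.08 ± 0.47 against O group, the largest of the members fitted in each comparison.

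Ctsw encodes cathepsin W, a cysteine protease made in T cells and NK cells. Its platelet levels were 13.5, 5.90, 9.65, 11.2 and 8.56 CPM in C group, 32.0, 14.7, 27.0, 9.24 and 23.9 CPM in S group and 6.36, 3.54, 8.73, 3.48 and 5.22 CPM in O group. It was the only member for which all 5 S group libraries lay above all 5 O group libraries, as did 1.5% of the genes tested. Against C group the ranges overlapped through replicate 4 of S group. The log2 fold changes were 1.16 ± 0.32 against C group and 2.03 ± 0.38 against O group.

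Granzyme A and granzyme B are serine proteases of the granule, and granzyme B cuts caspases and other targets after aspartate. Gzma was at 39.6, 27.5, 57.9, 32.7 and 38.0 CPM in platelets of C group, 65.1, 57.6, 84.2, 28.1 and 53.7 CPM in S group and 13.7, 25.3, 44.5, 29.5 and 28.6 CPM in O group. Gzmb was at 9.18, 6.11, 12.6, 9.28 and 10.6 CPM in C group, 25.6, 17.0, 21.8, 8.53 and 11.6 CPM in S group and 2.70, 6.80, 9.31, 6.46 and 6.17 CPM in O group. In both genes replicate 4 of S group was again the lowest of its group and lay inside the C group range, and the other S group libraries lay above all O group libraries. Gzmb was higher in S group by a log2 fold change of 0.84 ± 0.29 against C group and 1.48 ± 0.34 against O group. Gzma was higher by 1.09 ± 0.32 against O group (adjusted P = 0.258), and against C group its log2 fold change of 0.58 ± 0.27 just missed the threshold (95% interval -0.004 to 1.16) and passed without replicate 3 of C group (0.793) or without replicate 4 of S group (0.758). It also passed in 3 of 8 other settings, without the filter on low counts, with the replicate number as a block and with voom.

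Nkg7, a membrane protein of cytotoxic granules needed for their release, was at 26.3, 26.8, 26.0, 19.7 and 17.9 CPM in platelets of C group, 47.5, 36.3, 46.1, 20.8 and 31.8 CPM in S group and 10.98, 18.2, 21.5, 23.3 and 17.8 CPM in O group. Of the S group libraries, 4 lay above every library of the other groups and replicate 4 lay within both ranges. S group was higher by a log2 fold change of 0.67 ± 0.22 against C group and 1.06 ± 0.24 against O group.

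**Figure D1:**
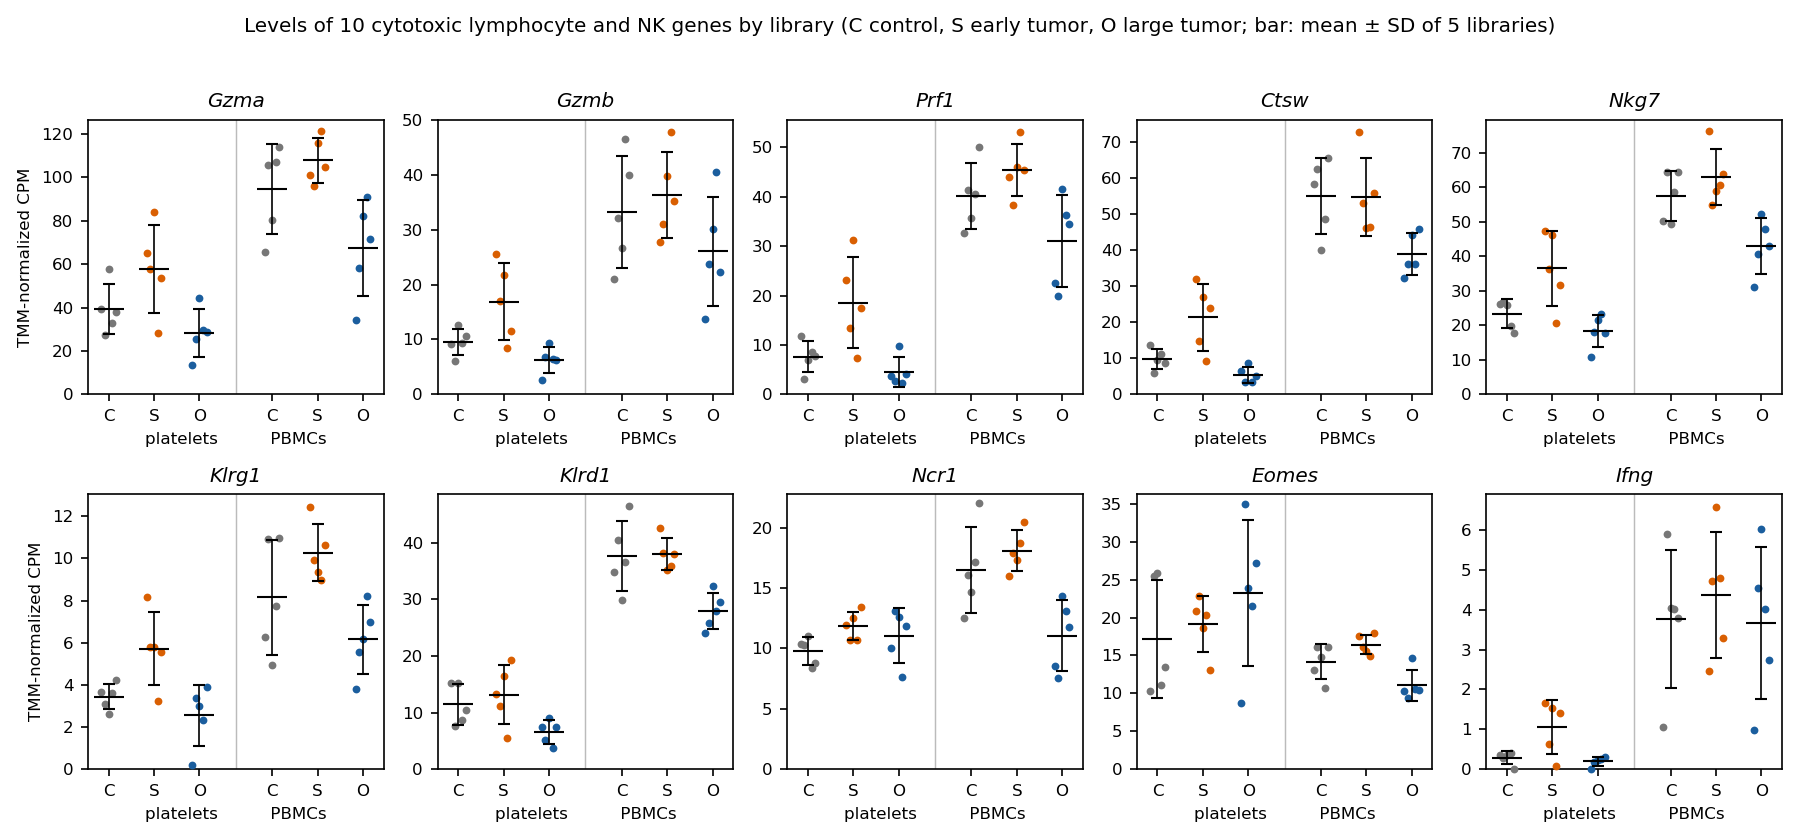
TMM-normalized CPM (vertical axes, linear, from 0) of the 10 genes in each library of platelets (left of the grey line) and PBMCs (right) of C, S and O group, each point 1 library and bars the mean ± SD of 5 libraries. In platelets the S group points of Prf1, Gzmb, Ctsw and Nkg7 lie mostly above both other groups with replicate 4 low, while Ncr1 and Eomes overlap, and in PBMCs the O group mean is the lowest of the 3 in each panel.

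The receptor genes were not uniform. Klrg1, an inhibitory receptor of mature NK and effector T cells that binds cadherins, was at 3.65, 3.09, 2.62, 3.61 and 4.23 CPM in platelets of C group, 8.15, 5.78, 5.78, 3.25 and 5.56 CPM in S group and 0.193, 3.35, 2.99, 2.32 and 3.91 CPM in O group. The S group libraries other than replicate 4 lay above both other groups, and the lowest value, in replicate 1 of O group, stands for 1 count. S group was higher by a log2 fold change of 0.77 ± 0.27 against C group and 1.18 ± 0.46 against O group (adjusted P = 0.310). Without replicate 1 of S group, its highest library, neither passed, with log2 fold changes of 0.60 and 1.01. Against C group it also did not pass with all 3 groups in one fit (0.78).

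Klrd1 encodes CD94, the partner chain of the NKG2 receptors. Its platelet levels were 15.1, 7.65, 15.2, 8.66 and 10.5 CPM in C group, 13.2, 11.2, 16.5, 5.53 and 19.3 CPM in S group and 7.51, 5.22, 9.08, 3.81 and 7.37 CPM in O group. The S group range held the whole C group range, and 4 of the 5 O group libraries lay below every C group library. S group was higher than O group by a log2 fold change of 1.05 ± 0.35 (adjusted P = 0.279), whereas against C group it was 0.23 ± 0.32 and did not pass (95% interval -0.45 to 0.91).

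Ncr1 encodes NKp46, the activating receptor by which NK cells are recognized across mouse strains. Its platelet levels were 10.3, 10.3, 11.1, 8.35 and 8.76 CPM in C group, 11.95, 10.7, 12.54, 10.7 and 13.4 CPM in S group and 10.0, 13.1, 12.6, 7.61 and 11.9 CPM in O group. The groups overlapped, with means of 9.77 ± 1.15, 11.9 ± 1.18 and 11.1 ± 2.26 CPM (SD, n = 5 each). The log2 fold change of S group was 0.31 ± 0.17 against C group (95% interval -0.06 to 0.68) and 0.17 ± 0.19 against O group (95% interval -0.25 to 0.59). The intervals hold 0, and they do not show that the groups were alike. Without replicate 3 of C group the first difference passed (0.385).

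Eomes, the T-box factor of NK cells and memory T cells, was at 10.2, 25.5, 25.8, 11.03 and 13.5 CPM in platelets of C group, 20.8, 22.8, 18.6, 20.3 and 13.1 CPM in S group and 8.67, 34.9, 23.9, 21.5 and 27.1 CPM in O group. In C group 3 libraries were low and 2 high, and the highest and the lowest library of all were both in O group. S group differed by a log2 fold change of 0.17 ± 0.27 from C group (95% interval -0.40 to 0.75) and by -0.20 ± 0.28 from O group (95% interval -0.81 to 0.40), and neither passed. Without replicate 1 of O group, one of the libraries that stand apart, the difference from O group passed as lower in S group (-0.424). The sign of its difference from O group was opposite to that of the other 8 fitted members. Tbx21 (T-bet), the related factor of the same program and named here after its values were seen, also did not pass, with 0.36 ± 0.22 against C group and 0.17 ± 0.29 against O group.

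Ifng, the cytokine that these cells release, was near the limit of detection in platelets. The 5 libraries of C group held 4, 4, 5, 4 and 0 counts, those of S group 21, 6, 14, 1 and 19, and those of O group 0, 2, 2, 3 and 6. S group replicates 1, 3 and 5 had more counts than any other platelet library, and replicate 4 had 1. Scaled to depth, replicate 2 (0.630 CPM) also lay above C group (at most 0.412 CPM) and O group (at most 0.301 CPM). The gene did not pass the filter on low counts. In edgeR without the filter its log2 fold change was 1.88 ± 0.75 against C group (adjusted P = 0.6001) and 2.32 ± 0.81 against O group (adjusted P = 0.304), and both passed the unadjusted threshold. DESeq2 gave 1.92 ± 0.79 (adjusted P = 0.587) and 2.40 ± 0.84 (adjusted P = 0.116). The size of these values rests on few counts.

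Between O group and C group platelets, Ctsw was lower by a log2 fold change of -0.89 ± 0.33 and Klrd1 by -0.85 ± 0.31, 2 of 9 members where 2.17% of 13270 genes were called lower, with adjusted P values from 0.910 to 0.948 over the members. Gzmb was at -0.66 ± 0.30, Prf1 at -0.80 ± 0.45, Gzma at -0.53 ± 0.29, Nkg7 at -0.40 ± 0.20 and Klrg1 at -0.45 ± 0.45, and these did not pass. Ncr1 (0.13 ± 0.20) and Eomes (0.36 ± 0.35) had positive values that did not pass. Without 1 library the calls could be lost while the values stayed near, at -0.74 and -0.72 for Ctsw without replicate 2 of O group or replicate 1 of C group and -0.70 and -0.69 for Klrd1 without replicate 1 or 3 of C group. The count was 0 without replicate 1 of C group, 1 without replicate 3 of C group or replicate 2 of O group, 4 without replicate 2 of C group and 5 without replicate 3 of O group. Blocking on the replicate number gave 5 as well. Over the members fitted, the median log2 fold change was 0.67 for S group against C group, 1.09 for S group against O group and -0.53 for O group against C group, and over all genes it was -0.01 in each.

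**Figure D2:**
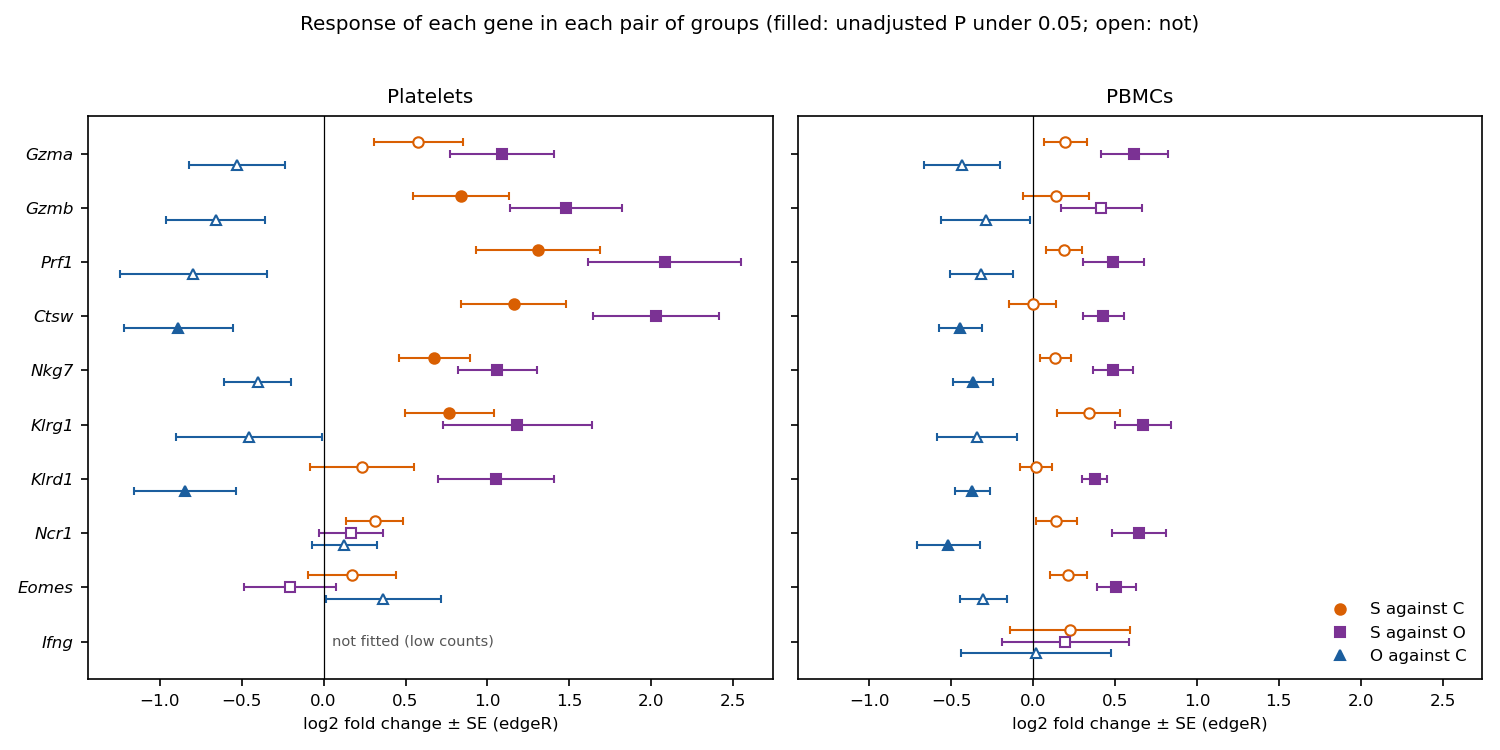
Log2 fold change ± SE from edgeR (horizontal axes) of each gene for S against C group, S against O group and O against C group in platelets (left) and PBMCs (right), with filled symbols for an unadjusted P under 0.05. In platelets 5 genes are filled for S against C group and 7 for S against O group, and in PBMCs 8 are filled for S against O group and none for S against C group, where a fit with the replicate number as a block, not drawn, called Klrg1 and Eomes.

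Other lymphocyte genes moved with the members in platelets. The summed level of 11 T cell markers was 524 to 617 CPM in C group, 588 to 730 CPM in S group and 329 to 648 CPM in O group, and no marker was at 0 in any group. Of these 11, 4 were higher in S group than in C group and 9 higher than in O group, and in O group 5 were lower than in C group. Cd3e, a chain of the T cell receptor complex, was higher in S group by a log2 fold change of 0.99 ± 0.34 against C group and 1.80 ± 0.43 against O group (adjusted P = 0.225), beside 1.16 and 2.03 for Ctsw.

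Of 8 B cell markers, whose genes are not cytotoxic, 3 were higher in S group than in C group and 6 higher than in O group. Of 9 fitted neutrophil markers, 6 were lower in S group than in O group, with S100a8 at -2.53 ± 0.67. Replicate 4 of S group, the lowest of its group for 9 of the 10 members, had 698 CPM of T cell markers, the second highest of its group, and 12.6 CPM of Cd3e, the second lowest of its group. Ptprc did not pass in any comparison of platelet groups.

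When the mean level of the T cell markers was entered as a covariate, 0 of 9 members passed in any comparison of platelet groups, with log2 fold changes of -0.60 to 0.59 for S against C group and -0.46 to 0.83 for S against O group. In that fit the number of all genes called higher in S group was 253 in place of 569 against C group and 226 in place of 962 against O group. Without the libraries that stand apart, the counts of members were 5, 7 and 2 as before. Both fits were chosen after seeing the data. The part of T cell and B cell RNA in the platelet differences of the members was not tested further.

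**Figure D3:**
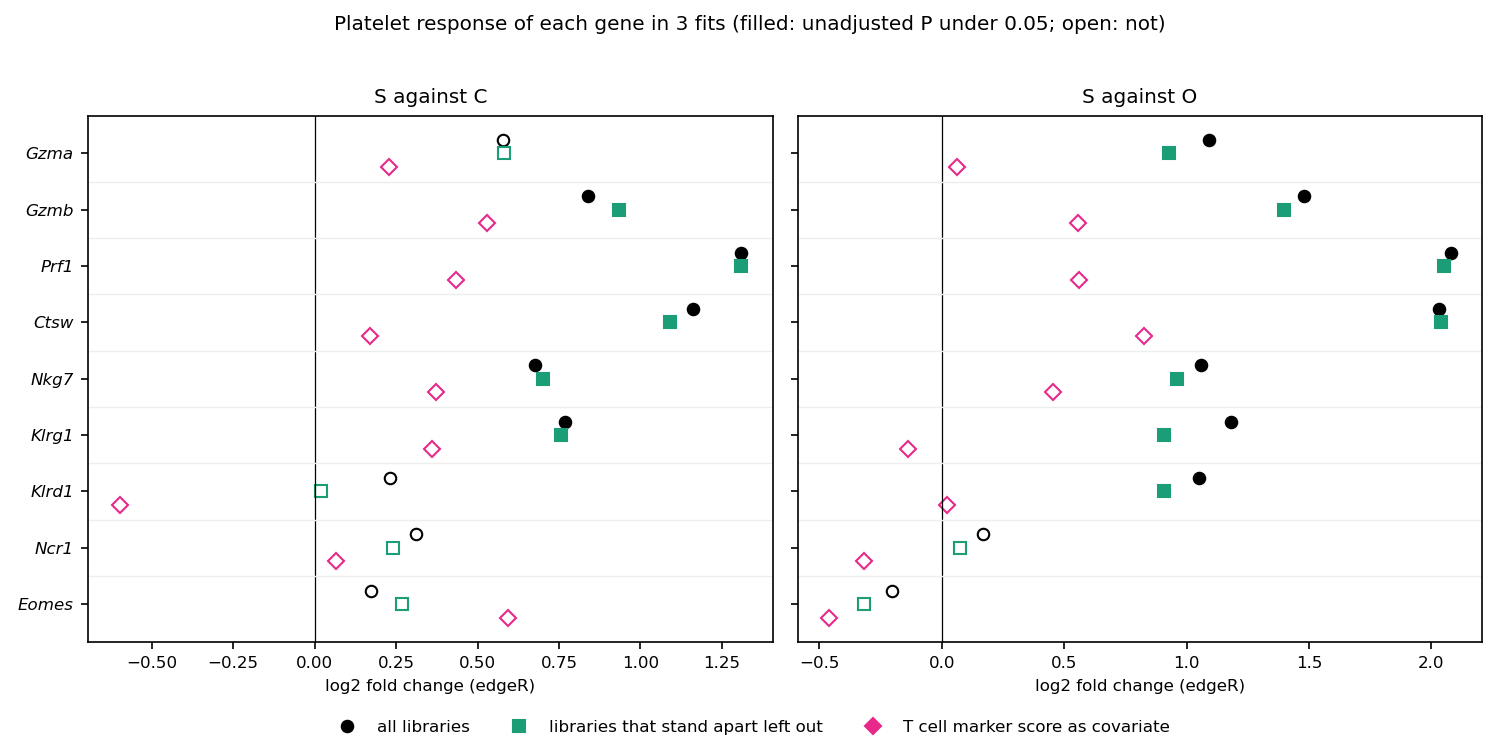
Log2 fold change (horizontal axes) of the 9 fitted genes in platelets for S against C group (left) and S against O group (right) with all libraries, without the libraries that stand apart and with the T cell marker score as a covariate, with filled symbols for an unadjusted P under 0.05. The first 2 fits give the same filled genes, and with the covariate no symbol is filled.

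**Figure D4:**
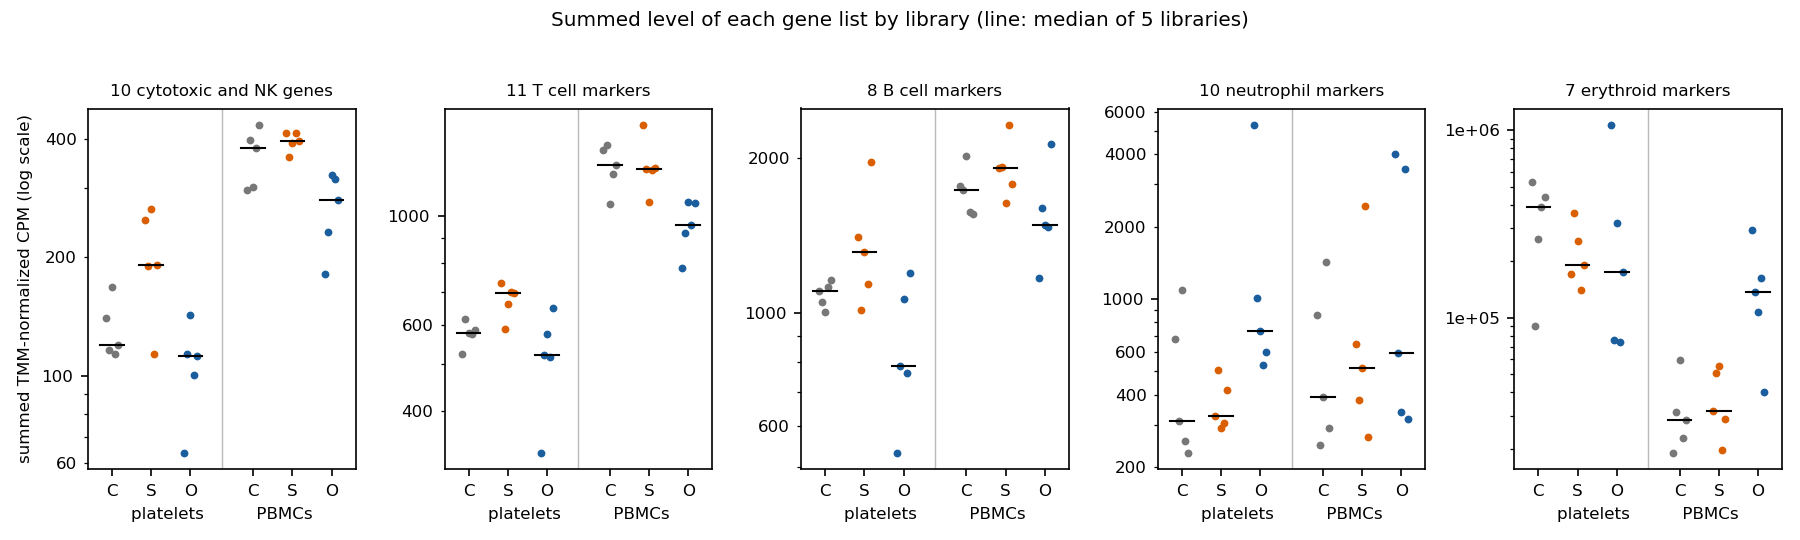
Summed TMM-normalized CPM (vertical axes, log scale) of the 10 genes and of 4 marker lists in each library of both tissues, with a line at the median of 5 libraries. In platelets the sum of the 10 genes was 114 to 265 CPM in S group, 113 to 168 CPM in C group and 63.7 to 143 CPM in O group, and the T cell and B cell sums were lowest in replicate 1 of O group.

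Of 110 further genes of the cytotoxic program, 95 were fitted for S against C group in platelets, and 10 of them rose in S group and 0 fell, where 569 (4.29%) and 283 of all 13268 genes did. They were 3 of 8 cytokine receptor genes, 3 of 9 homing and adhesion receptors, 2 of 7 chemokines and cytokines, 1 of 10 transcription factors and 1 of 12 receptor adapters and kinases. None of 22 further NK receptor genes, 11 genes of granule assembly and release, 14 interferon gamma receptor and target genes or the 2 further granzymes fitted was called. Il2rb, the shared beta chain of the interleukin 2 and interleukin 15 receptors, had 55.1 ± 25.1 CPM in S group against 26.6 ± 6.89 CPM in C group (SD, n = 5 each), a log2 fold change of 1.09 ± 0.30 (adjusted P = 0.746). Others were the chemokine Ccl4 (1.09 ± 0.34), the homing receptors Cxcr6 (1.42 ± 0.50), S1pr5 (0.74 ± 0.29) and Cxcr3 (0.78 ± 0.31), Il12rb2 of the interleukin 12 receptor (1.56 ± 0.58), Il2rg (0.63 ± 0.24) and Cd247, the zeta chain that signals for the T cell receptor and NK receptors (0.44 ± 0.17).

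Against O group 15 of 97 were higher and 4 lower in S group, where 962 (7.23%) and 887 of 13306 genes were. Il2rb (1.79 ± 0.36), Il2rg (1.23 ± 0.28) and Il21r (1.09 ± 0.27) led the cytokine receptors, 5 of 8 of which were higher, and Cxcr6 (1.70 ± 0.50) and S1pr5 (1.19 ± 0.36) the homing receptors, 5 of 9. Cst7 (cystatin F, a protease inhibitor of cytotoxic cells that neutrophils and other myeloid cells express too) went the other way. It had 9.66 ± 1.55 CPM in S group, 9.14 ± 1.56 CPM in C group and 49.3 ± 54.5 CPM in O group (SD, n = 5 each), with a log2 fold change of -2.29 ± 0.74 for S against O group (adjusted P = 0.275) and a range of 6.22 to 116 CPM within O group. O group against C group had 3 higher and 3 lower of 94, where 347 and 288 (2.17%) of 13270 genes were, shares near those of all genes.

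Of the 10 members, 8 were higher in PBMCs of S group than in those of O group, where 4.43% of 14686 genes were called higher, and 4 were lower in O group than in C group, where 4.39% of 14726 genes were called lower. None passed between S group and C group in edgeR at an unadjusted P under 0.05, where 1.23% of 15139 genes were called higher, and DESeq2 called 0 as well. The replicate numbers paired these S and C group libraries, and with the replicate number as a block Klrg1 (0.38) and Eomes (0.23) passed as higher in S group. Adjusted P values of the members were 0.296 to 0.864 for S against O group, 0.337 to 0.991 for O against C group and 0.9999 throughout for S against C group. Of all genes, 0 had an adjusted P under 0.05 in the first 2 of these and 5 (0.033%) in the last.

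Klrd1 had the smallest P of the members between S group and O group. Its PBMC levels were 34.9, 40.5, 29.9, 36.5 and 46.4 CPM in C group, 42.5, 38.1, 35.2, 36.0 and 38.0 CPM in S group and 24.1, 25.9, 32.3, 28.0 and 29.6 CPM in O group. Every S group library lay above every O group library. S group was higher by a log2 fold change of 0.38 ± 0.08 (adjusted P = 0.296), and O group was lower than C group, at -0.37 ± 0.11 (adjusted P = 0.337).

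Ncr1, which edgeR did not call between platelet groups, was at 12.54, 16.1, 14.7, 17.2 and 22.1 CPM in PBMCs of C group, 15.98, 17.9, 17.3, 18.7 and 20.5 CPM in S group and 8.56, 7.57, 14.3, 13.1 and 11.8 CPM in O group. S group and O group did not overlap (log2 fold change 0.65 ± 0.17, adjusted P = 0.296). The difference of O group from C group, -0.52 ± 0.19 (adjusted P = 0.363), did not pass without replicate 5 of C group (-0.40).

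Eomes was at 13.1, 16.1, 14.8, 10.7 and 16.1 CPM in PBMCs of C group, 17.5, 16.1, 15.5, 14.9 and 17.9 CPM in S group and 10.2, 9.36, 14.7, 10.5 and 10.4 CPM in O group. The S group libraries again lay above all O group libraries, by 0.51 ± 0.12, and replicate 3 of O group stood close below them. Klrg1 was at 8.999 to 12.4 CPM in S group, 3.82 to 8.22 CPM in O group and 4.94 to 10.99 CPM in C group, a log2 fold change of 0.67 ± 0.17 for S against O group.

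Among the granule genes, Gzma was at 96.2 to 121 CPM in S group against 34.5 to 90.9 CPM in O group (log2 fold change 0.62 ± 0.21). Ctsw was at 46.0 to 72.6 CPM in S group against 32.1 to 45.8 CPM in O group (0.43 ± 0.13). Nkg7 was at 55.0 to 76.4 CPM and 31.1 to 52.3 CPM (0.49 ± 0.12). With Klrd1, Ncr1, Eomes and Klrg1 these 3 make 7 members whose S group and O group libraries did not overlap, as for 1.73% of the genes tested.

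Prf1 overlapped, with 38.3 to 53.0 CPM in S group and 19.96 to 41.6 CPM in O group, and was called (0.49 ± 0.19, adjusted P = 0.346), but not without replicate 4 of S group (0.43) or without the libraries that stand apart (0.40). Gzmb, at 27.7 to 47.8 CPM in S group against 13.8 to 40.5 CPM in O group, did not pass (0.42 ± 0.25, 95% interval -0.13 to 0.97). Ifng was well detected in PBMCs, with 13 to 150 counts, and ranged widely within each group, from 1.06 to 5.91 CPM in C group, 2.46 to 6.57 CPM in S group and 0.994 to 6.02 CPM in O group. Its log2 fold change for S against O group was 0.20 ± 0.39 (adjusted P = 0.864).

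O group was also below C group for Ctsw (-0.44 ± 0.13) and Nkg7 (-0.36 ± 0.12). Between S group and C group the log2 fold changes ran from -0.001 for Ctsw to 0.34 for Klrg1. Without replicate 2 of C group 2 members passed, and without replicate 5 of C group 3 did. The median log2 fold change of the 10 members was 0.16 for S against C group, 0.49 for S against O group and -0.35 for O against C group, and that of all genes was 0.01, -0.001 and 0.001.

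T cell markers moved with the members in PBMCs as well, with 1057 to 1392 CPM in C group, 1066 to 1532 CPM in S group and 783 to 1069 CPM in O group. Of 11, 10 were higher in S group than in O group and 10 were lower in O group than in C group, with Cd3e at 0.38 ± 0.12 and -0.46 ± 0.11. All 7 erythroid markers were higher in O group than in either other group, and the neutrophil marker sum reached 3988 CPM in replicate 1 of O group, the library that was lowest for 7 members. No T cell, neutrophil or erythroid marker was at 0 in any group. With the T cell marker score as a covariate, 0 of 10 members passed for S against O group and for O against C group. The number of all genes called in these 2 fits is not given here, so the loss of calls cannot be set against that of all genes. The log2 fold changes for S against O group were then 0.01 to 0.50, from Ctsw (0.01) to Eomes (0.38) and Ncr1 (0.50), and none changed sign. The part of these cell types in the PBMC differences was not tested further.

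Of 100 further genes of the program fitted for S against O group in PBMCs, 27 rose and 3 fell in S group, where 651 and 1145 of all 14686 genes did, and 14 of the 27 were among the 24 NK receptor genes. In the direct test of the 2 tissues' responses 0 of the 25 NK receptor genes were called higher in platelets and 1 lower, so this list was not shown to differ between tissues. Klrb1c (NK1.1) was at 16.9 ± 1.82 CPM in S group against 10.1 ± 1.75 CPM in O group (SD, n = 5 each), a log2 fold change of 0.67 ± 0.12 (adjusted P = 0.296). Klrb1a (0.91 ± 0.24), Klra9 (0.76 ± 0.18), Klrk1 (NKG2D, 0.44 ± 0.13), Cd96 (0.43 ± 0.12), the transcription factor Zfp683 (Hobit, 0.77 ± 0.21), the kinase Zap70 (0.37 ± 0.11) and Il2rg (0.35 ± 0.11) were higher as well. O group against C group had 2 higher and 11 lower of 99, where 1113 and 646 of 14726 genes were, with Klrb1c at -0.60 ± 0.14 and Klrb1a at -0.99 ± 0.27. S group against C group had 1 higher of 99, a share not above the 1.23% of all genes.

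Over all 30 libraries, 9 of the 10 members were lower in platelets than in PBMCs and Eomes was higher, all at an adjusted P under 0.05 in edgeR, where 45.5% of 16498 genes were lower and 35.8% higher. Since most genes differ between the tissues, the count alone says little. Ifng had the largest difference, -3.25 ± 0.34, followed by Ctsw at -2.23 ± 0.16, Prf1 at -2.16 ± 0.20, Klrd1 at -1.78 ± 0.14 and Gzmb at -1.65 ± 0.17. For Ctsw (3.48 to 32.0 CPM against 32.1 to 72.6 CPM) and Klrd1 (3.81 to 19.3 CPM against 24.1 to 46.4 CPM) all 15 platelet libraries lay below all 15 PBMC libraries, as for 13.0% of the genes tested.

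Gzma (-1.14 ± 0.16), Nkg7 (-1.10 ± 0.11) and Klrg1 (-1.10 ± 0.18) differed less, and Ncr1 least of those that were lower, by -0.45 ± 0.10 (10.9 ± 1.74 CPM against 15.2 ± 4.06 CPM, SD, n = 15 each). Eomes was at 19.9 ± 7.37 CPM in platelets and 13.9 ± 2.90 CPM in PBMCs (SD, n = 15 each), a log2 fold change of 0.53 ± 0.15 (adjusted P = 0.00188). For comparison, Ptprc was lower in platelets by -2.49 ± 0.23 and Cd3e by -2.54 ± 0.18. The median of the members was -1.39 and that of all genes -0.17. Of the 101 further genes of the program that were fitted, 60 were lower and 20 higher in platelets, among the latter Cd226 (4.14 ± 0.23), Stx11 (3.90 ± 0.22), Srgn (2.83 ± 0.20) and Itga2 (2.81 ± 0.17).

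**Figure D5:**
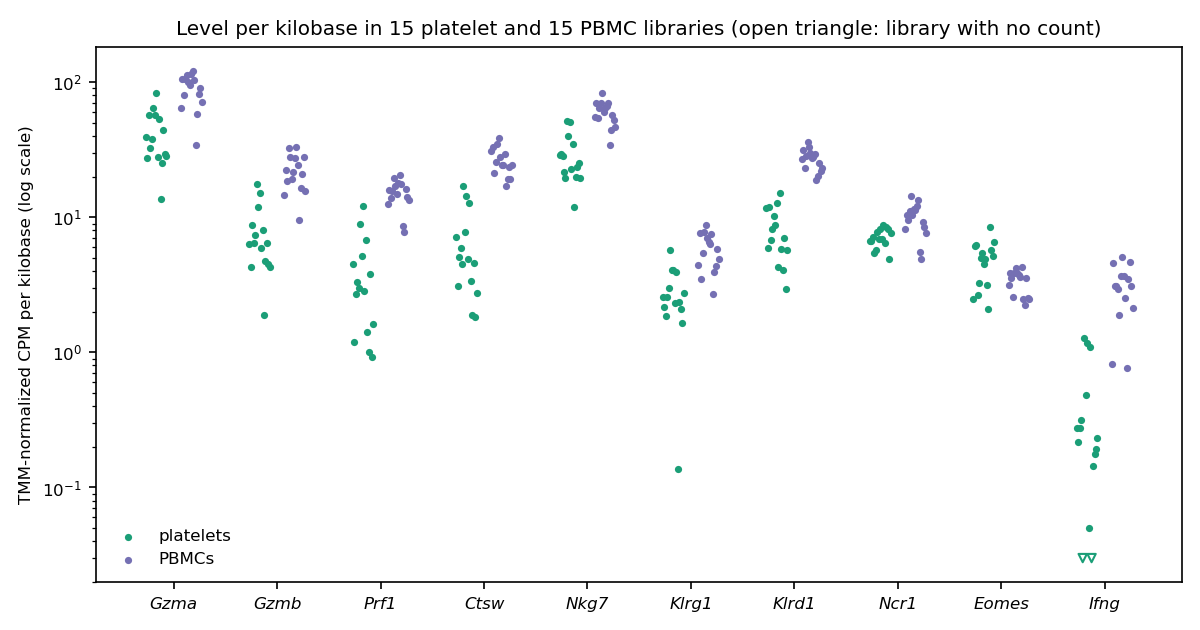
TMM-normalized CPM per kilobase of exon (vertical axis, log scale) of each gene in 15 platelet and 15 PBMC libraries, each point 1 library and open triangles libraries with no count. Platelet points lie below PBMC points for Ctsw and Klrd1, reach down to 0 for Ifng in 2 libraries, and lie mostly above them for Eomes.

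Per kilobase of exon, Gzma and Nkg7 were the most abundant members in all 6 groups, at 38.9 ± 11.5 and 25.5 ± 4.58 CPM per kilobase in platelets of C group and 94.1 ± 20.6 and 62.9 ± 8.03 CPM per kilobase in PBMCs of C group (SD, n = 5 each). Their ranges overlapped in each group except S group PBMCs. The order of the rest differed between tissues. In PBMCs of all 3 groups the next genes were Klrd1, Ctsw, Gzmb and Prf1, with overlapping ranges between neighbours, and Ncr1 was the 7th. In platelets Ncr1 was the 5th gene in C group, the 6th in S group and the 3rd in O group, and Prf1 the 8th, the 7th and the 9th. Below Gzma and Nkg7, neighbours in the platelet order overlapped in their ranges down to Klrg1 and Prf1, and Ifng, the last, did not overlap with the member next above it in any of the groups.

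The difference of the platelet response from the PBMC response was tested directly as an interaction over the 30 libraries. For S against C group it was positive and passed for Ctsw (1.14 ± 0.37), Prf1 (1.11 ± 0.47) and Ifng (1.63 ± 0.80), 3 of 10 members where 3.33% of 16498 genes were called higher. The count was 1 without replicate 2 of C group platelets or replicate 3 of S group platelets and 5 without replicate 4 of S group platelets. For Gzmb (0.69 ± 0.41), Nkg7 (0.51 ± 0.27) and Klrg1 (0.40 ± 0.44) the tissues were not shown to differ. Cd3e passed as well (1.01 ± 0.41).

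For S against O group, the response was larger in platelets for Ctsw (1.49 ± 0.38, adjusted P = 0.175), Prf1 (1.495 ± 0.48), Gzmb (0.92 ± 0.42) and Ifng (1.96 ± 0.83), 4 of 10 members where 5.86% of all genes were called higher. It was smaller in platelets for Ncr1 (-0.61 ± 0.24) and Eomes (-0.86 ± 0.37), 2 of 10 where 7.75% of all genes were called lower. The split of 4 higher and 2 lower depended on the settings. With RLE size factors it was 5 and 0, without the filter on low counts 6 and 0 and with DESeq2 5 and 1. Ncr1 was at -0.47 and Eomes at -0.70 with RLE size factors and at -0.42 and -0.68 without the filter. Ncr1 was at -0.47 with DESeq2, and none of these values passed. For O against C group Ncr1 (0.75 ± 0.24) and Eomes (0.80 ± 0.37) passed, 2 of 10 where 3.89% of genes were called higher, and Eomes did not pass with RLE size factors (0.68), without the filter (0.69) or with DESeq2 (0.68). That count was also 1 without PBMC replicate 1, 2, 4 or 5 of O group or 2, 3 or 5 of C group, or without platelet replicate 2 or 5 of O group, 1, 4 or 5 of C group or 3 of S group. No adjusted P of the members was under 0.05 in these tests, and their range was 0.175 to 0.99998.

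Across the 15 platelet libraries the granule genes varied together. On the log2(CPM + 1) scale Pearson's r was 0.97 between Prf1 and Ctsw, 0.95 between Gzma and Gzmb and 0.89 between Gzmb and Nkg7, and the median r of a member with the other 9 was 0.77 for Gzma, 0.80 for Gzmb, 0.79 for Prf1, 0.77 for Ctsw, 0.76 for Nkg7 and 0.77 for Ifng. It was 0.66 for Klrg1, 0.63 for Klrd1, 0.37 for Ncr1 and 0.18 for Eomes. Eomes had an r of -0.54 with Cd3e and 0.84 with Tbx21, while r with Cd3e was 0.90 for Ctsw, 0.84 for Prf1, 0.74 for Klrd1, 0.68 for Ifng, 0.55 for Nkg7, 0.51 for Gzmb, 0.50 for Gzma, 0.43 for Klrg1 and 0.27 for Ncr1. In the 15 PBMC libraries the same medians were 0.66 to 0.84, and 0.41 for Ifng, and Eomes had an r of 0.72 with its partners. These values describe libraries that share groups, pools and depth and carry no test.

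The genes outside the list that followed the mean of the members most closely differed between the tissues. Among 13165 genes in platelets they were Cd3g (r = 0.96), the T cell receptor chain gene, Ly6e (0.94), Cd74 (0.94), the invariant chain of antigen presentation, Clec2d (0.94), whose protein is a ligand of NK receptors, and Shisa5 (0.93). Among 12917 genes in PBMCs they were Klrk1 (0.97), the gene of the activating receptor NKG2D, Heatr9 (0.97), Samd3 (0.96), the chemokine Ccl5 (0.96) and Osbpl3 (0.95), over 15 libraries in each tissue.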

How the data were processed

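Platelet and PBMC RNA of C, S and O group was sequenced as 5 libraries per group and tissue, each a pool of mice. As the authors describe, low-quality reads and reads holding adapter or poly-N were dropped before alignment with HISAT2 2.0.5, and featureCounts 1.5.0-p3 made the deposited counts per gene, which are whole numbers without normalization (the submitters' processing notes also name DESeq2 1.16.1). The notes name mm9 as the build, while 54495 of the 54532 gene IDs are in GENCODE release M21, whose GRCm38 positions are used. Of the IDs, 54409 were given a symbol. Libraries were assigned by title, because in the labels of the platelet samples the cell type field says PBMC.

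Counts were analysed in R 4.3.3. Each pair of groups was fitted alone over all genes with edgeR 4.0.16 (filterByExpr, TMM, quasi-likelihood F test, two-sided). An unadjusted P under 0.05 was called, since the study's threshold of a P under 0.05 was read as unadjusted. P values adjusted by Benjamini-Hochberg over all genes tested are given beside it. SEs were taken as |log2 fold change| / √F, and 95% intervals use the t quantile of the fit. Levels are CPM with TMM factors from all 30 libraries. Tissues and interactions were fitted over 6 group means. Replicates are pools, so P values measure the spread between pools.

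The members and gene lists were chosen with earlier results of these data known. Named genes were the members, the 8 genes with the smallest P of the related lists in each comparison, reference genes and the 5 genes most like the mean of the members on the log2(CPM + 1) scale among those with a mean of at least 1 CPM. Not all related genes that this rule names are printed. The pairing check correlated deviations from group means between same-numbered libraries: over the 5 pairs of S and C group PBMCs r was 0.14 to 0.45 and each library correlated best with its own number, so the numbers were taken to pair these libraries. The numbers come from the sample titles, which do not say what they share.

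The alternatives were RLE size factors, no filter, DESeq2 1.42.0, a replicate block, all 3 groups in one fit, limma 3.58.1 voom with sample quality weights and leaving out each library. Leaving out libraries that stand apart and a T cell marker covariate were added after seeing the data. On simulated data for S against C group platelets (13268 genes), edgeR called 86 of 96 fitted genes changed 2-fold at the unadjusted threshold (48 at an adjusted P under 0.05) and 99 of 99 changed 4-fold (91 adjusted). For S against O group platelets (13306 genes) it called 79 of 98 (30 adjusted) and 97 of 98 (84 adjusted). The counts were simulated independently for each gene and held no library that stands apart, so these shares do not give the power for the members. No pair of replicates agreed within sampling noise (lowest chi-square per gene 11.3).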

Additional observations from a re-analysis of the deposited data

Results flagged for a closer look

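Of 60 groups of 5 libraries checked over the members, 2 held a library far from the others, where chance gives about 1 in 20. Prf1 in replicate 3 of O group platelets was at 9.768 CPM, with the next library of the group at 4.164 CPM. Eomes in replicate 3 of O group PBMCs was at 14.67 CPM, with the next at 10.5 CPM.

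The response of platelets and that of PBMCs differed, by an interaction test at an unadjusted P under 0.05, in 11 cases, and in none at an adjusted P under 0.05 (edgeR). For S minus C group the platelet response exceeded the PBMC response by a log2 fold change of 1.14 for Ctsw, 1.11 for Prf1 and 1.63 for Ifng, the last from at most 21 counts in a platelet library. For S minus O group the difference was 1.49 for Ctsw, 1.5 for Prf1, 0.925 for Gzmb and 1.96 for Ifng in the same direction, and -0.608 for Ncr1 and -0.863 for Eomes in the other. For O minus C group it was 0.752 for Ncr1 and 0.796 for Eomes. The T cell gene Cd3e had differences of 1.01, 1.34 and -0.33 in these comparisons. The part of T cell RNA in these differences was not tested.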

How the results depend on the processing

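Of 496 values of single members in comparisons of groups and of tissues (the interactions are not among these) under alternatives other than leaving out 1 library, 434 kept their direction and their side of the threshold, 26 kept the direction and lost the call, 19 gained one and 17 changed sign. Of 870 values with 1 library left out, 825 were kept, 8 lost, 21 gained and 16 changed sign.

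With the T cell marker score as a covariate, the number of members called was 0 in all 3 comparisons of platelets and in S against O group and O against C group of PBMCs. The signs changed with it in platelets for Klrd1 in S against C group (-0.599), for Klrg1 (-0.137) and Ncr1 (-0.317) in S against O group and for Gzma (0.108), Prf1 (0.0704) and Klrg1 (0.518) in O against C group, and in PBMCs of O against C group for Gzma (0.0216), Prf1 (0.0416), Ctsw (0.00955) and Klrg1 (0.317). The covariate itself differs between the groups, and the cause of these changes was not tested. With voom, 8 members were called for S against C group in platelets.

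With the replicate block 5 members were called for O against C group in platelets and 2 for S against C group in PBMCs, and no other count of calls moved by over 1.5 times. Outside S and C group PBMCs the numbers were not taken to pair libraries (lowest r of a pair -0.10 to 0.07). For O group platelets and PBMCs the mean r was 0.22 for the same number and -0.05 for other numbers, and pools of the same number held equally many mice. The main fits over both tissues treated the 30 libraries as independent. Same-numbered PBMC libraries of S and O group each correlated best with their own number, and there Gzmb passed with the block (0.469), for 9 members called in place of 8. The O minus C group interaction count was 1 with RLE size factors, 1 without the filter and 1 with DESeq2.

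Small PBMC values changed sign. For S against C group these were Ctsw with the replicate block (0.000122) and without the libraries that stand apart (0.0521) and Klrd1 with voom (-0.0365). For Ifng they were S against O group with voom (-0.0546) and without those libraries (-0.221), and O against C group without the filter (-0.000156) and with the replicate block (-0.0185).

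With each library left out, members called ranged from 4 to 7, 6 to 8 and 0 to 5 in platelets (S against C, S against O and O against C group), from 0 to 3, 7 to 9 and 3 to 5 in PBMCs, and from 1 to 5, 4 to 8 and 1 to 2 for the interactions, and stayed at 10 between tissues. Ranges that crossed 0 were, in PBMCs, -0.128 to 0.0587 for Ctsw, -0.0572 to 0.0948 for Klrd1 and -0.0157 to 0.445 for Ifng in S against C group, and for Ifng -0.0202 to 0.433 in S against O group and -0.223 to 0.235 in O against C group.

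The counts limit Ifng in platelets (0 to 21 per library) and Klrg1 in replicate 1 of O group platelets (1 count). The adjusted P values give no member past 0.05 between groups of a tissue, and S group platelet pools held more mice than O group pools.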
